A study of Bos taurus with 15 samples.

Results

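The rows DARS, EPRS, IARS, KARS, LARS, MARS and RARS of a bovine RNA-seq count table were examined. They are cytosolic aminoacyl-tRNA synthetases of the multi-tRNA synthetase complex. The 7 rows were taken by gene symbol, with earlier results of these data known. QARS, a further synthetase of the complex with a row, was not among them and is set beside them at the end. They make up 7 of the 31999 rows, and all 7 were among the 16375 rows that passed the filter on low counts. The libraries came from embryos at the morula stage, the compact ball of cells that precedes the blastocyst. There were 5 libraries from androgenetic haploid embryos (titled TII, replicates 1, 2, 4, 5 and 6), 5 from parthenogenetic haploid embryos (titled CHX, replicates 1, 2, 3, 5 and 6) and 5 from diploid embryos obtained by injecting a sperm into the oocyte (intracytoplasmic sperm injection, ICSI, replicates 1 to 5). Androgenetic embryos carry a sperm genome without the oocyte's, and parthenogenetic embryos an oocyte genome without sperm. Each group was made by its own procedure, so procedure, parental genome and ploidy cannot be told apart where they change together. The labels named no breed, bull, oocyte donor, batch or number of embryos per library.

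An aminoacyl-tRNA synthetase joins an amino acid to its matching tRNA, the step that fixes the genetic code's meaning during translation. In animal cells some of the cytosolic synthetases are held in a large complex with the scaffold proteins AIMP1, AIMP2 and EEF1E1, while the others work as free enzymes. A cleaving embryo first translates messenger RNA stored in the oocyte and then depends increasingly on transcripts of its own genome.

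Androgenetic libraries had lower mean levels than ICSI libraries for 6 of these 7 synthetases and a higher one for MARS. Levels are counts scaled to library size (CPM) with scaling factors by the trimmed mean of M-values (TMM), and they are compared between libraries for 1 gene, not between genes, since transcript lengths were not used. The 7 levels of a library summed to 436, 375, 498, 347 and 626 CPM in the androgenetic libraries, to 1099, 681, 1235, 1155 and 510 CPM in the parthenogenetic libraries and to 1070, 803, 886, 1215 and 1571 CPM in the ICSI libraries. The androgenetic sums all lay below the lowest ICSI sum, and they overlapped the parthenogenetic sums through parthenogenetic replicate 6. RARS and KARS weigh most in the ICSI sums, with mean shares of 33.3% and 24.4%. How often sums of other sets of rows separate was not computed. In bulk samples such as these, fewer cells of a type and less RNA per cell cannot be told apart. By edgeR's quasi-likelihood test with Benjamini-Hochberg adjustment over all rows tested, 0 of the 7 passed an adjusted p of 0.05 in any of the 3 comparisons, so the differences below are given as values with their intervals.

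Library totals were 20.0 to 29.0 M counts, and the members held between 99 and 18249 counts in a library. Genes with at least 1 count numbered 13564 to 18633 in the androgenetic group, 16154 to 18899 in the parthenogenetic group and 15286 to 19950 in the ICSI group. The fewest in each group were found in androgenetic replicate 6, parthenogenetic replicate 6 and ICSI replicate 5. These libraries also held many of the members' extreme values. The members' androgenetic comparisons and correlations are given with and without them. Shares, count ratios and the values of other genes are given with all libraries only. Of 28 marker genes of morula, trophectoderm, primitive endoderm, oocyte and cumulus cells, 1, the pluripotency factor SOX2, had a row under its symbol. The labelled stage was therefore not checked further. The labels do not say whether the replicates came from separate embryos or pools, so p-values measure the spread between these libraries only.

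**Figure D1:**
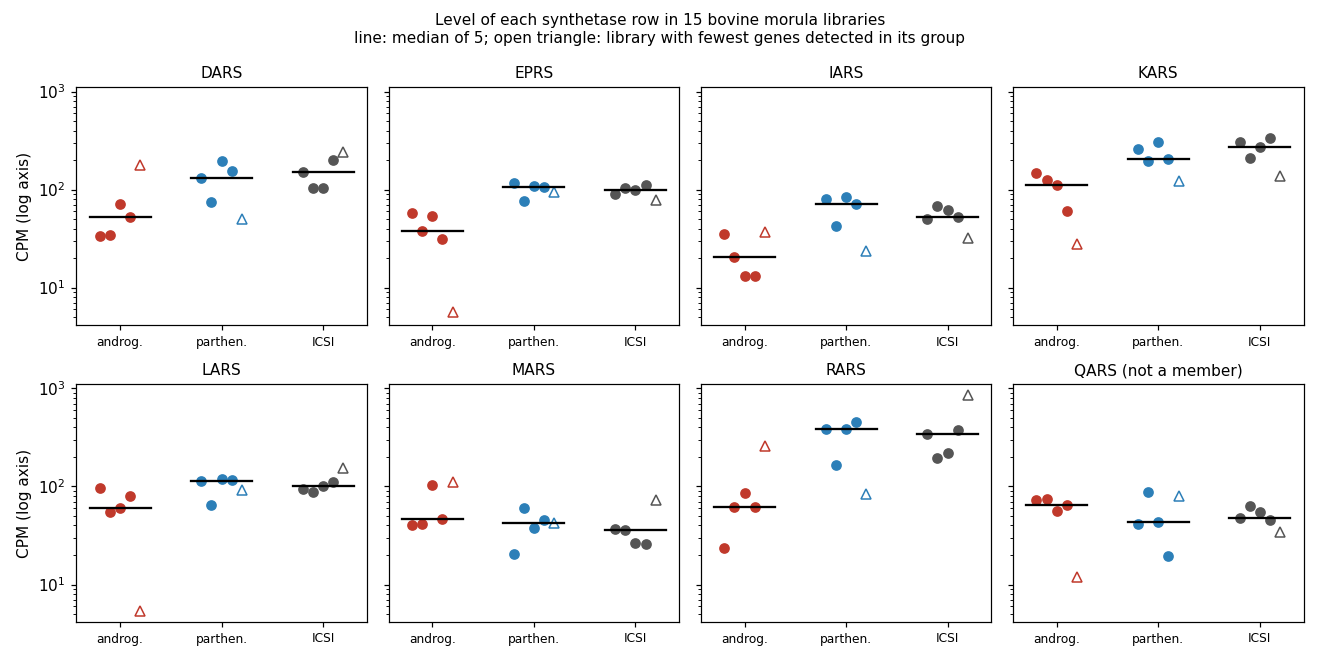
Level of each complex synthetase in every library, in TMM-scaled CPM on a log axis, with androgenetic libraries left, parthenogenetic libraries in the middle and ICSI libraries right. Points are libraries, lines are group medians, and open triangles are the library with the fewest genes in each group. QARS, which is no member, is shown last. EPRS is the member for which every androgenetic library lies below every library of both other groups, and MARS is the member for which the androgenetic median is the highest of the 3 groups.

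KARS, the lysyl-tRNA synthetase, and DARS, the aspartyl-tRNA synthetase, are class II enzymes that bind the scaffold AIMP2 in the human complex, and in human the KARS gene also yields the mitochondrial lysyl enzyme. KARS had 149, 125, 111, 61.1 and 27.9 CPM in androgenetic libraries, 258, 197, 304, 206 and 123 CPM in parthenogenetic libraries, and 304, 209, 275, 338 and 137 CPM in ICSI libraries. The highest androgenetic libraries overlapped the lowest library of each other group, which was replicate 6 among parthenogenetic and replicate 5 among ICSI libraries. The KARS difference was -1.41 ± 0.42 (log2 fold change ± SE, 2.66-fold lower) for androgenetic minus ICSI, with a 95% interval of -2.30 to -0.53 and an edgeR quasi-likelihood adjusted p of 0.0701. DARS had 33.6, 34.2, 71.0, 53.0 and 179 CPM in androgenetic libraries, 132, 75.2, 194, 156 and 50.6 CPM in parthenogenetic libraries, and 152, 103, 104, 201 and 244 CPM in ICSI libraries. Androgenetic replicate 6 stood far above the rest of its group and within the ICSI range, and the remaining 4 androgenetic libraries lay below every ICSI library. The DARS difference was -1.11 ± 0.49 for androgenetic minus ICSI, with an interval of -2.15 to -0.08 and an edgeR quasi-likelihood adjusted p of 0.215.

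RARS, the arginyl-tRNA synthetase, sits in the human complex together with the glutaminyl enzyme QARS and the scaffold AIMP1. Its log2 fold change for androgenetic minus ICSI was the lowest of the 7. RARS had 23.7, 61.2, 85.3, 62.1 and 259 CPM in androgenetic libraries, 381, 164, 387, 453 and 83.6 CPM in parthenogenetic libraries, and 343, 196, 220, 375 and 854 CPM in ICSI libraries. As with DARS, androgenetic replicate 6 was the only androgenetic library within the ICSI range, while ICSI replicate 5 had the highest level of all 15 libraries. RARS differed by -2.02 ± 0.61 for androgenetic minus ICSI (4.05-fold lower), with an interval of -3.30 to -0.74 and an edgeR quasi-likelihood adjusted p of 0.0729. The value was -2.69 (adjusted p = 0.0290) without androgenetic replicate 6 and -1.51 (adjusted p = 0.151) without ICSI replicate 5, both by the same edgeR test.

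EPRS charges both glutamate and proline through 1 polypeptide, and in human cells it also takes part in a translation-silencing complex. It was the member for which the androgenetic group stood apart from both others, which overlapped each other. EPRS had 57.7, 37.6, 53.2, 31.1 and 5.69 CPM in androgenetic libraries, 115, 77.4, 109, 107 and 93.8 CPM in parthenogenetic libraries, and 89.3, 103, 99.0, 112 and 78.0 CPM in ICSI libraries. The highest androgenetic library stood below the lowest library of either other group, and androgenetic replicate 6 stood far below its own group. EPRS differed by -1.38 ± 0.44 for androgenetic minus ICSI (2.60-fold lower), with an interval of -2.30 to -0.46 and an edgeR quasi-likelihood adjusted p of 0.0845. Of all rows tested, 4.15% had every androgenetic library below every ICSI library, and EPRS was the 1 member of 7 that did.

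IARS and LARS, the isoleucyl- and leucyl-tRNA synthetases, are large class I enzymes, and LARS is known in human cells as a leucine sensor upstream of the growth kinase complex mTORC1. IARS had 35.6, 20.3, 13.2, 13.1 and 36.9 CPM in androgenetic libraries, 79.4, 42.9, 83.5, 71.3 and 23.5 CPM in parthenogenetic libraries, and 50.0, 67.4, 61.5, 52.3 and 32.1 CPM in ICSI libraries. The androgenetic range touched the others through parthenogenetic replicate 6 and ICSI replicate 5, which were low for their groups. IARS differed by -1.14 ± 0.43 for androgenetic minus ICSI, with an interval of -2.05 to -0.23 and an edgeR quasi-likelihood adjusted p of 0.144. LARS had 96.0, 55.5, 60.9, 80.1 and 5.37 CPM in androgenetic libraries, 113, 64.8, 120, 116 and 92.7 CPM in parthenogenetic libraries, and 94.7, 88.5, 101, 112 and 154 CPM in ICSI libraries. Androgenetic replicate 1 reached the ICSI range, and androgenetic replicate 6 was by far the lowest of all 15 libraries. LARS differed by -0.89 ± 0.49 for androgenetic minus ICSI, with an interval of -1.92 to 0.15 that includes no difference, and an edgeR quasi-likelihood adjusted p of 0.338.

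MARS, the methionyl-tRNA synthetase, charges both the initiator and the elongator methionine tRNAs, and it was the member that did not share the direction of the others. MARS had 40.9, 41.2, 103, 46.6 and 112 CPM in androgenetic libraries, 20.5, 59.9, 37.5, 45.1 and 42.8 CPM in parthenogenetic libraries, and 36.6, 36.4, 26.3, 25.6 and 72.6 CPM in ICSI libraries. Androgenetic replicates 4 and 6 were the highest of all 15 libraries, and ICSI replicate 5 overlapped the androgenetic range. MARS differed by 0.80 ± 0.43 for androgenetic minus ICSI (1.74-fold higher), with an interval of -0.11 to 1.71 that includes no difference, and an edgeR quasi-likelihood adjusted p of 0.324.

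**Figure D2:**
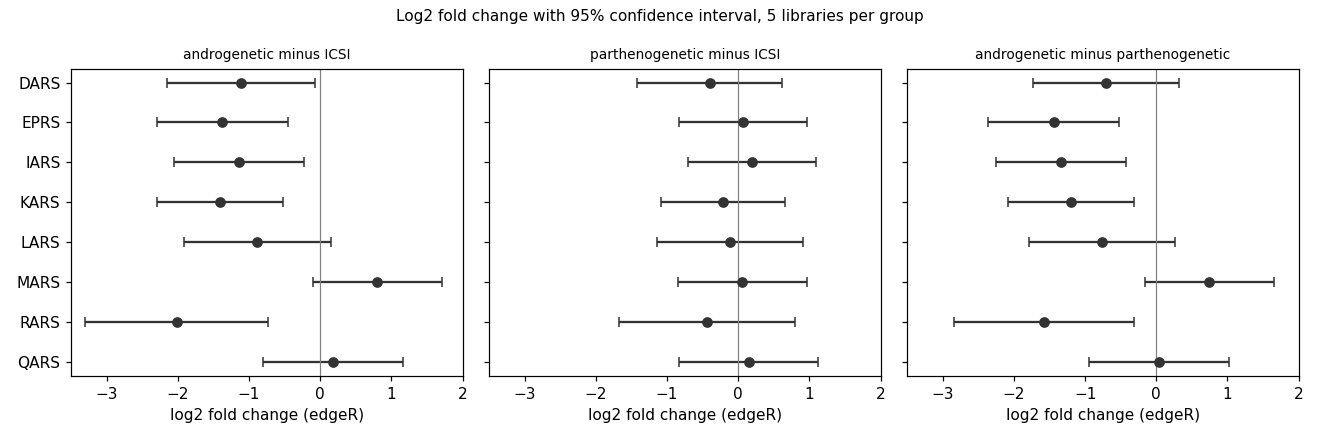
Log2 fold change of each complex synthetase and of QARS with its 95% interval from the edgeR quasi-likelihood fit, with a panel for each pair of groups. For androgenetic minus ICSI, 6 of the 7 members lie below 0 and MARS lies above it. For parthenogenetic minus ICSI every interval spans 0.

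The members were chosen with earlier results of these data known. Their medians and counts, here and in the later comparisons, are therefore a description and no test of the set. For androgenetic minus ICSI, the members' median log2 fold change was -1.14, beside -0.01 over all rows tested. By edgeR's quasi-likelihood test without adjustment (p under 0.05), 5 of the 7 were lower (DARS, EPRS, IARS, KARS and RARS), beside 9.86% of all rows. After adjustment the share of all rows called lower was 1.06%, and 0 of the 7 members were among them. Other tests of the same libraries called some members. DESeq2's Wald test called EPRS, KARS and RARS lower, where it called 4.49% of all rows lower, and limma voom called the same 3 members, with 2.72% of all rows. The voom fit also put the median of all rows at -0.54, and that of the members at -1.33.

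Leaving out the library with the fewest genes in each group changed the members' ranges and calls. Among the 4 libraries left in each group, every androgenetic library lay below every ICSI library for DARS, EPRS, IARS, KARS and RARS, as for 11.6% of all rows. MARS then lay above in every androgenetic library, as for 7.40% of all rows. In an edgeR quasi-likelihood fit of those 12 libraries the same 5 members were called lower, where 3.79% of all rows were. Their values were -1.45 for DARS (adjusted p = 0.0245), -1.07 for EPRS (0.0301), -1.38 for IARS (0.0333), -1.23 for KARS (0.0253) and -2.19 for RARS (0.00781). MARS was at 0.97 there, with an edgeR adjusted p of 0.136, and LARS at -0.33, with an adjusted p of 0.511. LARS was at -0.49 (edgeR adjusted p = 0.362) when androgenetic replicate 6 alone was left out. Leaving out only androgenetic replicate 6 gave calls for DARS (adjusted p = 0.0395) and RARS, with 1.59% of all rows called lower by edgeR. Leaving out only parthenogenetic replicate 6, which enters this comparison through the shared estimate of spread and the filter, gave a call for RARS at -2.03 (adjusted p = 0.0472), with 2.08% of all rows called lower by edgeR. With genes detected as a covariate of the edgeR fit, the median of the 7 was -0.96, beside 0.26 over all rows. That fit called 0 of the 16375 rows, so its 0 calls among the members say nothing about them.

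The parthenogenetic libraries carry a haploid genome too, but of maternal origin. For parthenogenetic minus ICSI the members had a median log2 fold change of -0.12, beside 0.02 over all rows tested, and 4 of 7 were below 0. Of the 7 members, 0 were called by edgeR's quasi-likelihood test, where 0.0733% of all rows were called lower. Without adjustment 0 reached a p under 0.05 in that test, where 173 of the 16375 rows were lower and 131 higher. DESeq2's Wald test and limma voom also called 0, where they called 0.238% and 0.0672% of all rows lower. With so few rows called, 0 of 7 says little about the members. The values ran from -0.44 for RARS, with a 95% interval of -1.67 to 0.80, to 0.19 for IARS, with an interval of -0.71 to 1.09. KARS was at -0.21 with an interval of -1.09 to 0.66, and DARS at -0.40 with an interval of -1.43 to 0.62. EPRS was at 0.06 (-0.84 to 0.97), LARS at -0.12 (-1.14 to 0.90) and MARS at 0.06 (-0.84 to 0.96). These intervals are wide, so equal levels in parthenogenetic and ICSI morulae were not shown.

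The comparison of the haploid groups sets a sperm genome against an oocyte genome at the same ploidy, and it shares its androgenetic libraries with the first comparison and its parthenogenetic libraries with the second. The members' median was -1.20, beside -0.0023 over all rows tested, and again 6 of 7 were below 0. By edgeR's quasi-likelihood test 0 of the 7 were called, where 0.837% of all rows were called lower. Without adjustment (p under 0.05 in that test) 4 were lower (EPRS, IARS, KARS and RARS), beside 9.73% of all rows. EPRS differed by -1.44 ± 0.44, with an interval of -2.36 to -0.52 and an edgeR adjusted p of 0.0883. Every androgenetic library lay below every parthenogenetic one for EPRS, as for 2.77% of all rows, and for 0 other members. RARS differed by -1.58 ± 0.60, with an interval of -2.85 to -0.32 and an edgeR adjusted p of 0.163. IARS was at -1.33 ± 0.44 (adjusted p = 0.106) and KARS at -1.20 ± 0.42 (adjusted p = 0.131) in the same edgeR fit. DARS and LARS were at -0.71 and -0.77, and MARS was at 0.74, with edgeR adjusted p of 0.467, 0.429 and 0.376.

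The same libraries moved this comparison. DESeq2's Wald test called EPRS and IARS lower, with 4.20% of all rows, and limma voom called EPRS, with 2.12% and a median of all rows of -0.45. Without the library with the fewest genes in each group, DARS, EPRS, IARS, KARS and RARS were each lower in all 4 androgenetic libraries than in all 4 parthenogenetic ones, as were 8.78% of all rows. The edgeR fit of those libraries called DARS (-1.43), EPRS (-1.07), IARS (-1.62) and RARS (-2.46) lower at adjusted p of 0.0251, 0.0281, 0.0174 and 0.00506, with 4.76% of all rows. LARS was at -0.38 in that fit, with an adjusted p of 0.436. Without androgenetic replicate 6 alone, edgeR called RARS at -2.23 (adjusted p = 0.0455), with 0.919% of all rows. Without parthenogenetic replicate 6 alone it called IARS at -1.55 (adjusted p = 0.0397), with 2.32% of all rows.

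**Figure D3:**
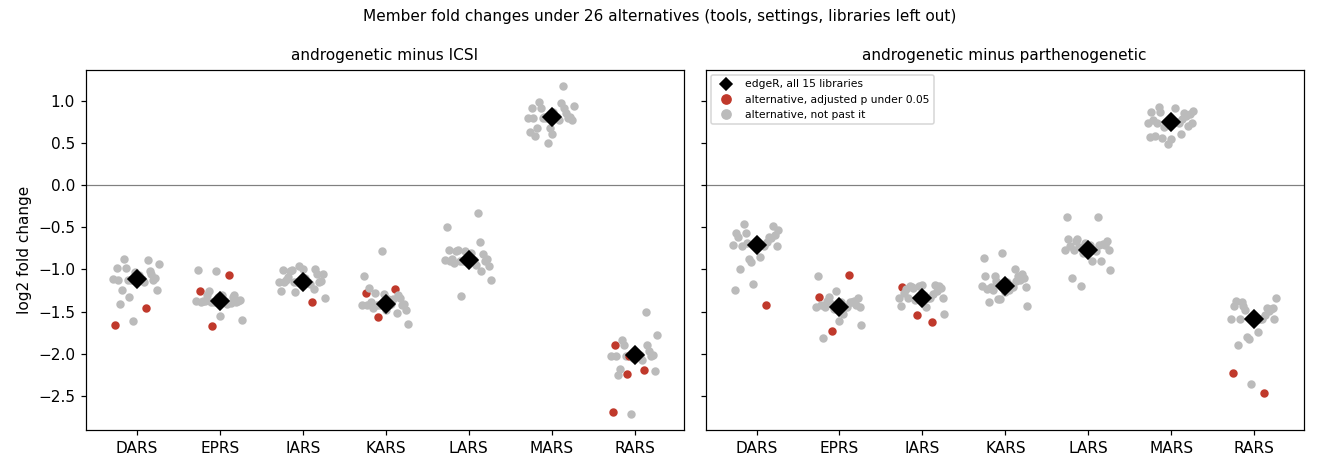
Log2 fold change of each complex synthetase under each processing alternative, for androgenetic minus ICSI (left) and androgenetic minus parthenogenetic (right). Black diamonds are the edgeR fit of all 15 libraries, and red points mark alternatives in which the member passed an adjusted p of 0.05. Each member keeps its sign in all 26 alternatives in both panels, and LARS and MARS are called in 0 of them. In the left panel several alternatives called 0 rows of the whole table, so the lack of a call in those says nothing about a member.

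The make-up of the 7 members' summed RNA level was read within each library, where scaling between libraries plays no part. QARS, also a synthetase of the complex, is not in this sum, and shares with QARS added were not computed. As a share of the 7 members' summed level, MARS took 9.37, 11.0, 20.8, 13.4 and 17.9% in androgenetic libraries, 1.86, 8.79, 3.03, 3.91 and 8.39% in parthenogenetic libraries, and 3.42, 4.53, 2.97, 2.11 and 4.62% in ICSI libraries. Every androgenetic MARS share lay above every MARS share of both other groups. The share ranges of the other members overlapped between groups. How often shares within sets of other rows separate in this way was not computed. The mean MARS share was 14.5% ± 4.76 for the androgenetic group, 5.20% ± 3.18 for the parthenogenetic group and 3.53% ± 1.06 for the ICSI group (SD, n = 5 each). A share depends on the other members as well, whose levels were lower there. RARS took 19.6% ± 13.2 of the sum in androgenetic libraries and 33.3% ± 12.2 in ICSI libraries, with overlapping ranges.

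**Figure D4:**
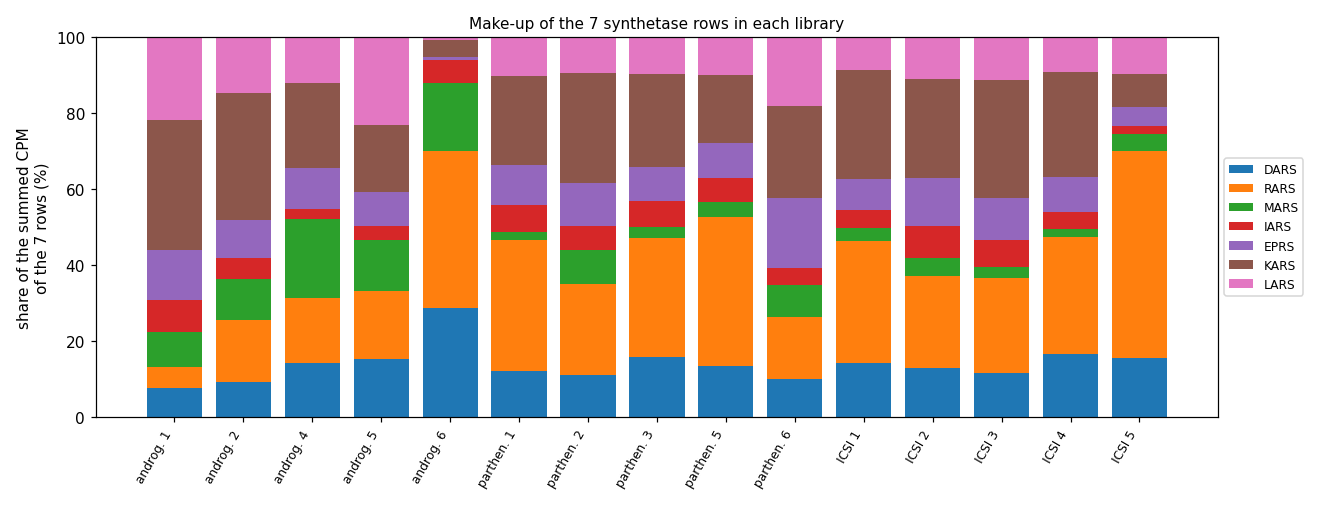
Share of each complex synthetase in the summed level of the 7, in percent, as a stacked bar for each library, androgenetic libraries left, parthenogenetic libraries in the middle and ICSI libraries right. Shares also depend on transcript length, so they are compared between libraries and not between genes. The MARS share is 9.37 to 20.8% in androgenetic libraries, above the highest share of 8.79% in parthenogenetic and 4.62% in ICSI libraries.

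Count ratios between members of a library were chosen after their values were seen and are given as a description. The ratio of RARS to DARS counts was 0.705 to 1.79 (median 1.20) in androgenetic libraries, 1.65 to 2.91 (median 2.18) in parthenogenetic libraries and 1.87 to 3.49 (median 2.13) in ICSI libraries. Every androgenetic RARS to DARS ratio lay below every ICSI ratio and the range overlapped the parthenogenetic one. This includes that of androgenetic replicate 6, in which both levels were high for the group. The ratio of MARS to KARS was 0.274 to 4.02 (median 0.762) in androgenetic libraries, 0.0794 to 0.348 (median 0.219) in parthenogenetic libraries and 0.0759 to 0.531 (median 0.121) in ICSI libraries, and the androgenetic range overlapped both others. The ratio of KARS to EPRS overlapped in all groups as well, at 1.97 to 4.90 in the androgenetic group, 1.31 to 2.79 in the parthenogenetic group and 1.75 to 3.40 in the ICSI group. For RARS to KARS, MARS to EPRS and LARS to EPRS, also computed, the androgenetic range overlapped both others too. How often ratios of other rows separate was not computed.

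Across libraries some members kept close to each other. Pearson's r between log2(CPM + 1) values of the 15 libraries is given as a description, since the points share a library, its depth and its scaling. DARS and RARS had r = 0.95, and 0.94 after group means were taken away. EPRS was close to KARS, at 0.92, and at 0.82 without group means. It was also close to LARS, at 0.91 both ways, but at 0.73 over the 12 libraries left without the one with the fewest genes in each group. DARS and EPRS had r = 0.15 over 15 libraries and -0.55 without group means, but 0.84 over those 12 libraries. Over the 12 libraries, with group means kept, all 15 pairs among the 6 members other than MARS lay between 0.61 and 0.95. Over all 15 libraries these pairs lay between 0.025 and 0.95. Without group means they ran from -0.55 to 0.94, and 8 of the 15 pairs were negative. MARS had r of -0.67 to -0.40 with the other 6 members over the 12 libraries and of -0.73 to -0.0063 over all 15. Without group means its values ran from -0.61 with KARS to 0.43 with DARS and RARS.

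**Figure D5:**
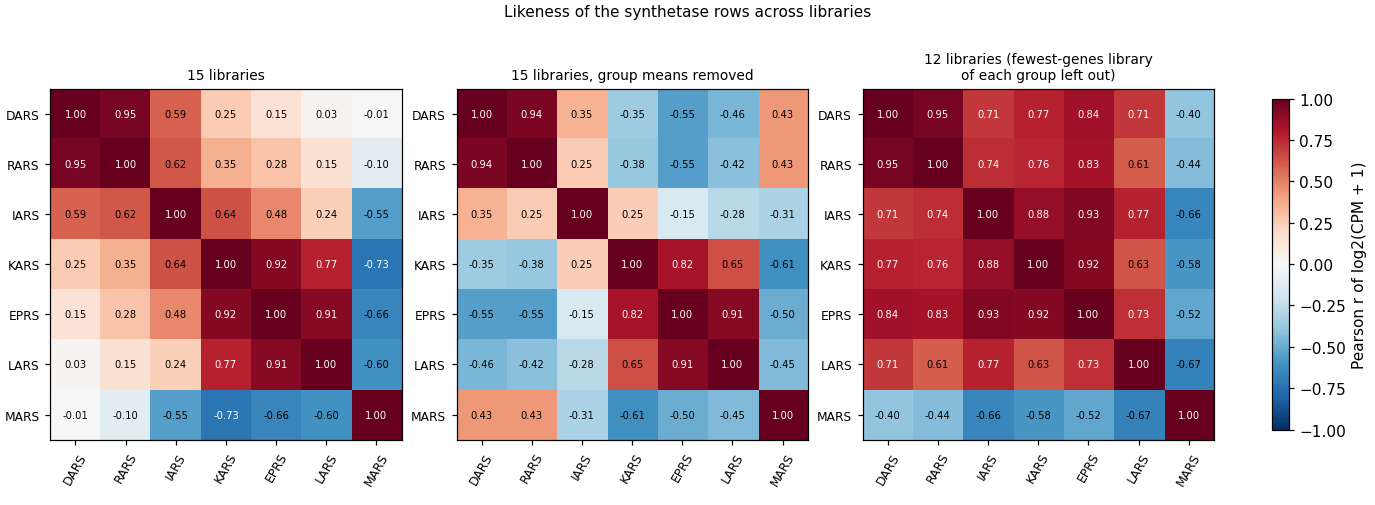
Pearson's r between complex synthetases over 15 libraries (left), over 15 libraries after group means were taken away (middle) and over the 12 libraries left without the library with the fewest genes in each group (right), computed on log2(CPM + 1). DARS with RARS stays at 0.94 to 0.95 in all 3 panels, while DARS with EPRS is 0.15, -0.55 and 0.84.

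QARS, the glutaminyl-tRNA synthetase, was the other gene of the complex with a row under its symbol, of QARS, AIMP1, AIMP2 and EEF1E1. It had 72.0, 74.3, 56.3, 64.3 and 11.9 CPM in androgenetic libraries, 41.9, 87.1, 43.6, 19.7 and 79.7 CPM in parthenogenetic libraries, and 47.8, 63.0, 54.8, 45.7 and 34.5 CPM in ICSI libraries. The groups overlapped, and QARS differed by 0.18 for androgenetic minus ICSI, with an interval of -0.80 to 1.16 and an edgeR adjusted p of 0.875. Its neighbour in the complex, RARS, was at -2.02 in the same fit, and the difference between the genes was not tested.

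Of the cytosolic synthetases that work outside the complex, 10 of 12 had a row. For androgenetic minus ICSI, 9 of these 10 were below 0, with a median of -1.12. Over all rows, edgeR called 1 of the 10 lower, TARS, the threonyl-tRNA synthetase, at -1.55 ± 0.35 (adjusted p = 0.0360), beside 1.06% of all rows. Without adjustment 6 of the 10 were lower at p under 0.05, beside 9.86% of all rows. Every androgenetic library lay below every ICSI library for 4 of the 10 (AARS, SARS, TARS and WARS), beside 4.15% of all rows. For 2 of the 10, TARS and CARS, every androgenetic library lay below every parthenogenetic one, as for EPRS, beside 2.77% of all rows. For parthenogenetic minus ICSI the median of the 10 was -0.08 and edgeR called 0, where it called 0.0733% of all rows lower. For androgenetic minus parthenogenetic 9 were below 0, with a median of -1.05, and edgeR called TARS again at -1.59 (adjusted p = 0.0334), beside 0.837% of all rows. The complex members had -1.14, -0.12 and -1.20 in the same 3 comparisons, and the difference between the lists was not tested. Of 26 genes of the amino acid response, in which uncharged tRNA turns on ATF4 targets, 1 had a row under its symbol, CEBPG, the partner of ATF4. CEBPG averaged 36.2 ± 26.3 CPM in the androgenetic group, 13.4 ± 4.16 CPM in the parthenogenetic group and 22.5 ± 8.80 CPM in the ICSI group (SD, n = 5 each), and its edgeR adjusted p was 0.477 for androgenetic minus ICSI and 0.129 for androgenetic minus parthenogenetic. Of 17 mitochondrial synthetases and 10 translation elongation genes, 0 had a row under a symbol, and they are not analysed here.

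Among 261 other symbol rows with a mean of at least 5 CPM, the pattern over the 15 libraries most like the members' mean was that of TARS, with r = 0.92 (0.67 after group means were taken away). It was followed by ASNA1, which inserts tail-anchored proteins into membranes, at 0.91 (0.72), the zinc finger gene ZNF567 at 0.90 (0.69), the kinesin-binding protein gene KIF1BP at 0.89 (0.81) and the vesicle fusion gene VAMP3 at 0.85 (0.67). These rows were picked for likeness to a mean that is itself lower in the androgenetic group, so their own group differences are not separate results. QARS stood at rank 155 of the 261, with r = -0.16.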

How the data were processed

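Per the labels' protocols, polyA RNA of each sample was amplified with the SMART-Seq HT kit and sequenced from Nextera XT libraries. Trim Galore, cutadapt, STAR and featureCounts were used, per the submitters' processing notes. Tool versions, genome build, annotation and strand setting are not given in the sources used here, so overlapping and antisense genes cannot be told apart. The deposited table held raw counts that the authors had not normalized, and 27607 of its 31999 rows, with 92.9% of counts, had Ensembl identifiers not paired with symbols here. Each of the 7 members had 1 Ensembl row with nearly the same counts (within 2% or 3 counts in each library). Whether both rows stand for 1 gene was not checked.

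The test was edgeR's (version 4.0.16, R 4.3.3) on these counts, with its default expression filter by group, TMM scaling and a quasi-likelihood fit in which all 15 libraries took part and each group had its own coefficient. The p-values were adjusted by Benjamini-Hochberg over 16375 rows, with calls at an adjusted p under 0.05. The standard error is the log2 fold change divided by the square root of F, taken as positive, and 95% intervals use the fit's t distribution. The common biological coefficient of variation was 1.02. Alternatives used DESeq2 1.42.0, limma 3.58.1, other scaling, filters and libraries. All 7 members are named whatever their result, with the called genes of other lists, the complex's other genes and the 5 rows most like the members. The edgeR fit was tested on simulated counts, for androgenetic minus ICSI only, and the other steps were not. The members and lists were chosen with earlier results of these data known.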

Additional observations from a re-analysis of the deposited data

Results flagged for a closer look

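In 4 of the 21 sets of 5 libraries examined, 1 per member and group, a library stood farther from the rest than Dixon's 95% critical value allows. Among independent sets of normally distributed values, about 1 of 20 would do so. The gaps were taken on CPM and not on log values, and the sets share the same 15 libraries. That rate therefore need not hold here, and the flags on a log scale were not computed. Androgenetic replicate 6 had 179 CPM of DARS, where the other androgenetic libraries had 33.6 to 71.0, and 259 CPM of RARS, where they had 23.7 to 85.3. ICSI replicate 5 had 854 CPM of RARS, where the other ICSI libraries had 196 to 375, and 72.6 CPM of MARS, where they had 25.6 to 36.6. Both libraries had the fewest genes detected in their groups, 13564 and 15286. Their part in the results was not tested beyond leaving them out.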

How the results depend on the processing

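Over 26 alternative fits, the 182 member values of each comparison kept their sign for androgenetic minus ICSI and for androgenetic minus parthenogenetic, with 14 and 9 of them gaining a call. For androgenetic minus ICSI the number of members called lower, 0 in edgeR's quasi-likelihood test of all libraries, was 3 with DESeq2's Wald test, 3 with limma voom, 5 without the library with the fewest genes in each group, and 0 to 2 with each replicate left out in turn. Leaving out androgenetic replicate 1 or 2, or ICSI replicate 1, 3 or 4, left 0 rows of the whole table called. Leaving out ICSI replicate 2 left 1 row called lower, and leaving out androgenetic replicate 5 left 11. The members' 0 in these fits therefore says nothing about them. For androgenetic minus parthenogenetic the number of members called lower was 2, 1, 4 and 0 to 1 under the same alternatives. There, leaving out a replicate gave 7 to 400 rows called lower. The members' median ranged from -1.34 to -1.02 and from -1.36 to -1.06 with each replicate left out.

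For parthenogenetic minus ICSI, 14 of the 182 values turned sign, all of them within their errors. With genes detected as a covariate KARS was at 0.018. Without the library with the fewest genes in each group EPRS was at -0.00025, LARS at 0.043 and RARS at 0.27. With each replicate left out, EPRS ranged from -0.0075 to 0.14, LARS from -0.19 to 0.030, MARS from -0.12 to 0.39 and RARS from -0.65 to 0.035. The cause of these turns was not tested.

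With the replicate number as a block, 0 members were called in each comparison, where of the 16375 rows 0 were called lower for androgenetic minus ICSI, 3 for parthenogenetic minus ICSI and 44 for androgenetic minus parthenogenetic. The members' medians were -1.21, 0.10 and -1.23, and for parthenogenetic minus ICSI KARS was at 0.17, LARS at 0.22 and MARS at -0.0063. The numbers were not taken to pair the samples: over 12 same-numbered pairs the correlation of deviations was -0.094 to 0.135, and 3 matched their own number best.

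DESeq2 size factors put the median of all rows at 0.13 for androgenetic minus ICSI and at 0.12 for androgenetic minus parthenogenetic, against -0.0074 and -0.0023 with TMM. For androgenetic minus ICSI they gave 139 rows lower and 372 higher, against 173 and 288 with TMM, and 0 members were called in any comparison. Limma voom put these medians at -0.54 and -0.45. Leaving out the Ensembl rows that nearly copy the members, an alternative chosen after seeing the data, gave a median of -1.15 and 0 calls. The members had at least 99 counts in each library. These are reads of amplified cDNA, so they do not show how many molecules were sampled.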
